A study of Mus musculus with 7 samples.

Results

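The genes examined here encode the receptors that bind the constant part of antibodies, the Fc receptors, and the proteins that carry their signal. The set holds 10 genes: the IgG receptors Fcgr1, Fcgr2b, Fcgr3 and Fcgr4, the neonatal Fc receptor Fcgrt, the signalling chains Fcer1g and Tyrobp, the lipid receptor Trem2, the kinase Syk and the phosphatase Ptpn6. They were found by gene symbol among 18193 genes that had a probe with a single symbol on an Affymetrix mouse array, and all 10 had one. All 10 also passed the filter on dim probes, as did 14453 genes in all. Where a gene had several probes, the one with the highest mean over the 7 arrays stands for it.

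The arrays measured RNA of EGFP-positive cells sorted from gliomas that had been passed from mouse to mouse. The glioma cells were of the C57/Bl6 background and carried PDGF-B/EGFP overexpression, that is, the growth factor PDGF-B and the green fluorescent protein EGFP made from a single bicistronic transcript. Secondary gliomas (n = 4) grew in NOD/SCID mice grafted with cells of early-onset, low-grade primary gliomas, and tertiary gliomas (n = 3) grew in NOD/SCID mice grafted with cells of a secondary glioma. All 7 samples thus share the oncogene, the strain of the tumour cells, the host strain, the trypsin dissociation and the sort on EGFP. NOD/SCID hosts lack functional B and T lymphocytes but keep myeloid cells. Samples within a group are labelled as biological replicates, but the primary tumour, the donor glioma, the host and its age are not named, so p-values measure the spread between these samples, which may be partly technical. It was not tested here whether the probes read C57/Bl6 and NOD alleles equally well. Values are log2 expression from RMA, with array medians between 5.57 and 5.64.

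Activating Fc gamma receptors cannot signal alone. They pair with the common gamma chain, the product of Fcer1g, whose tail carries an immunoreceptor tyrosine-based activation motif (ITAM). Tyrobp, also called DAP12, is the corresponding ITAM chain of Trem2 and related receptors. Once Src-family kinases phosphorylate the motif, Syk binds it and passes the signal on, while Fcgr2b carries an inhibitory motif (ITIM), and the phosphatase Ptpn6 (SHP-1) acts in ITIM signalling of myeloid cells. In the brain most of these genes are known mainly from microglia and other macrophages.

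RefSeq promoter windows (build GRCm38.p6) were held for 9 of the 10 genes, all but Tyrobp. Fcgr3 and Syk had a pair of windows each, for different starts, and that of Fcgr3 shown is the one with the lower coordinates. Windows of 4 genes are shown, the 3 activating receptors and their common chain. They were chosen because their products form complexes and all 4 transcripts were lower in tertiary gliomas. Each is the 250 bases before the annotated start, 5′ to 3′ on the gene's strand. Capitals mark GAGGAA or GGAAGT on either strand, and which can overlap each other; both are purine-rich letters of the kind that PU.1, the myeloid transcription factor encoded by Spi1, is known to bind.
Fcgr1 (chr3:96293970-96294219, minus strand): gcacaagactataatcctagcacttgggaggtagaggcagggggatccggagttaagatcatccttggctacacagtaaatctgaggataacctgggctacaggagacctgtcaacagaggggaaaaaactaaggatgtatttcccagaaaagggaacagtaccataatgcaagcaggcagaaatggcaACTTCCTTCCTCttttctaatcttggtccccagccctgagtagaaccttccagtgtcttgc
Fcgr4 (chr1:171018676-171018925, plus strand): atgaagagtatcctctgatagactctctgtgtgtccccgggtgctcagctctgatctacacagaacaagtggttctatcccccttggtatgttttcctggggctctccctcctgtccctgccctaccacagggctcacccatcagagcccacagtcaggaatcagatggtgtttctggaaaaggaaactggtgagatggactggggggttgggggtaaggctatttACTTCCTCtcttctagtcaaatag
Fcgr3 (chr1:171059395-171059644, minus strand): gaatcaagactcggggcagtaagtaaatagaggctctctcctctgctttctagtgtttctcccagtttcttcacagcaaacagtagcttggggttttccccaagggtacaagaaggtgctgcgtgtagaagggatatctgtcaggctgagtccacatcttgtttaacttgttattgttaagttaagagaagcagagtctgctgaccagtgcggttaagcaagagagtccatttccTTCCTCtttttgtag
Fcer1g (chr1:171234350-171234599, minus strand): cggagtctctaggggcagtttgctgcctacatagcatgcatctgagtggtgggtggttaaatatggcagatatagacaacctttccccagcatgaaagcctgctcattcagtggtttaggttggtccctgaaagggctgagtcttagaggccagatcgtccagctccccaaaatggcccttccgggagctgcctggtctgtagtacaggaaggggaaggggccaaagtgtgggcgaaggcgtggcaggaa
In the Fcgr1 window GAGGAA begins 55 bases before the start, in that of Fcgr4 22 bases and in that of Fcgr3 15 bases, each time on the opposite strand. The Fcer1g window holds neither motif. GAGGAA was in a window of 5 of the 9 genes (Fcgr1, Fcgr3, Fcgr4, Syk and Trem2) and in 25.9% of all 27025 genes with such windows, and GGAAGT was in 4 of the 9 (Fcgr1, Fcgr2b, Fcgr4 and Ptpn6) and in 22.2% of all. At least 1 of them was found in 7 of the 9 genes against 40.2% of all genes. The motifs were chosen after the windows had been seen, and a match says only that these letters are present.

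The comparison asks how these genes differ between gliomas of the second and of the first transplant. In tertiary gliomas 9 of the 10 genes were lower at an adjusted p under 0.05 (limma, Benjamini-Hochberg over 14453 genes), none was higher, and Fcgrt did not pass. Among all genes tested 6.33% were lower and 1.04% higher by the same rule. The median log2 fold change, tertiary minus secondary, was -3.88 over the 10 genes and 0.09 over all genes tested. In all 10 genes every tertiary value lay below every secondary value, as it did in 11.2% of all genes tested. The samples were bulk RNA of sorted cells, so fewer cells that carry these transcripts and less RNA of them per cell cannot be told apart.

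Markers of microglia and macrophages moved with the 10 genes. Of 19 such markers tested, none of which is among the 10, 19 were lower, with a mean change of -3.94 on the log2 scale. The phosphatase Ptprc (CD45) changed by -5.37, Cd68 by -3.97 and Spi1 by -2.65. Their mean level lay between 9.77 and 10.6 in the secondary and between 5.76 and 6.52 in the tertiary gliomas. RMA values have no zero, and 2 of the 19, Itgam and Adgre1, had a tertiary mean below the dim filter, a log2 value of 3.99. The highest tertiary mean among the markers was 9.33, for the protease Ctss. Their part in the results was not tested beyond the comparison with the marker mean given further on.

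**Figure D1:**
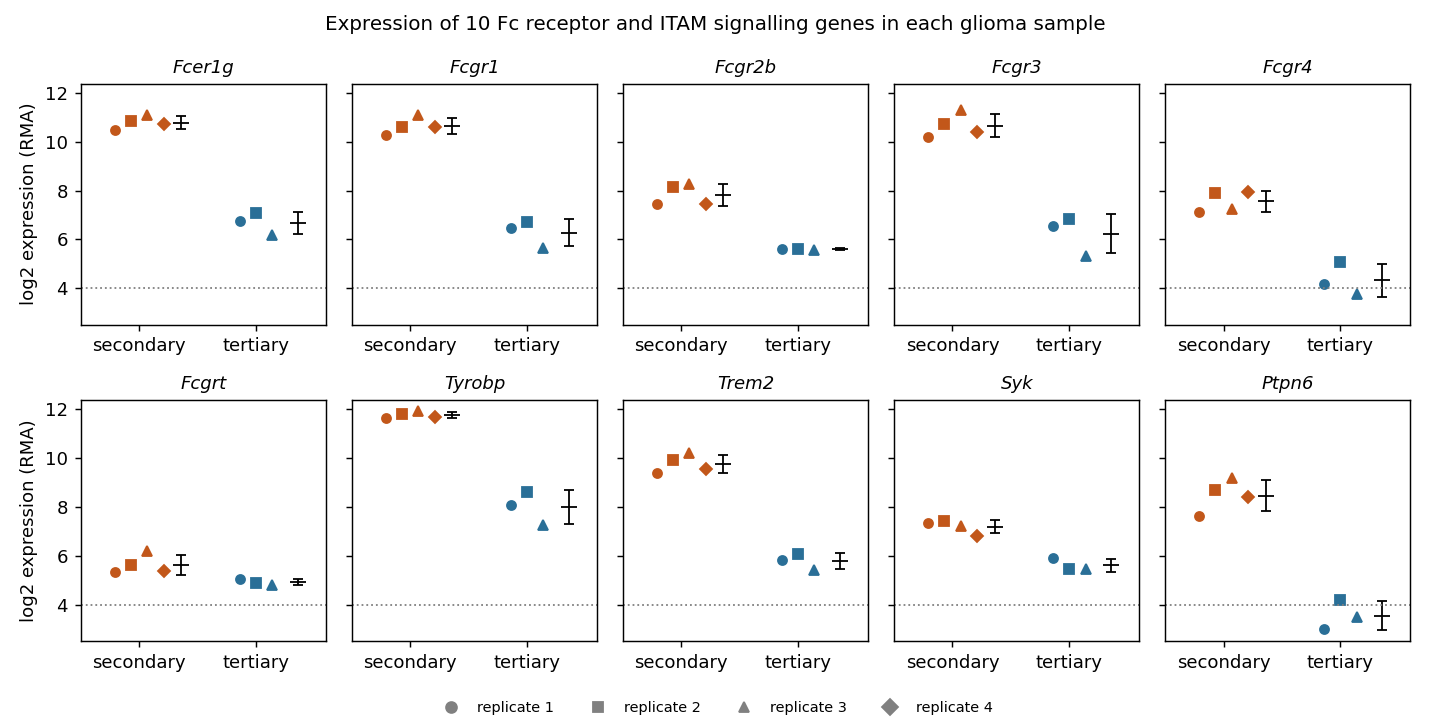
Log2 expression of the 10 genes in each of the 7 samples, with the mean ± SD of each group in black and the dim filter of 3.99 as a dotted line. In every panel all 3 tertiary values lie below all 4 secondary values, and those of Fcgrt are the closest.

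The signalling chains fell from high levels. Fcer1g stood at 10.49, 10.87, 11.08 and 10.71 in secondary gliomas 1 to 4 and at 6.77, 7.07 and 6.17 in tertiary gliomas 1 to 3. The gap between the groups was many times the spread within either. Its log2 fold change was -4.12 ± 0.24 (SE, n = 4 and 3; limma, adjusted p = 8.02e-05), a level 17.3 times lower. Tyrobp was at 11.64, 11.81, 11.93 and 11.69 in the secondary and at 8.10, 8.63 and 7.26 in the tertiary samples. The secondary samples lay close together (SD 0.13) and the tertiary ones further apart (SD 0.69), with tertiary glioma 3 lowest. The change was -3.77 ± 0.30 (SE; limma, adjusted p = 0.000187). Each of these genes had 1 probe.

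Of the IgG receptors, Fcgr1 encodes the high-affinity receptor CD64. Its probe read 10.28, 10.59, 11.09 and 10.60 in secondary and 6.47, 6.72 and 5.66 in tertiary gliomas. No values overlapped, and the fold change was -4.36 ± 0.29 (SE; adjusted p = 0.000107). A dim additional Fcgr1 probe ranged from 4.58 to 5.09 in secondary and from 4.13 to 4.51 in tertiary samples, and its change of -0.41 ± 0.17 did not pass when every probe was tested on its own (adjusted p = 0.238). Averaging the pair of probes gave -2.39 for the gene, still called.

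Fcgr3 encodes the low-affinity activating receptor CD16. Its values were 10.20, 10.74, 11.29 and 10.41 in secondary gliomas and 6.56, 6.84 and 5.33 in tertiary gliomas. Secondary glioma 3 was the highest and tertiary glioma 3 the lowest. The fold change was -4.42 ± 0.40 (SE; adjusted p = 0.000375). Fcgr4, an activating receptor of mice for certain IgG subclasses, read 7.11, 7.92, 7.25 and 7.96 in the secondary and 4.18, 5.07 and 3.75 in the tertiary samples. Here secondary gliomas 2 and 4 were high and the lowest tertiary value fell below the dim filter. The change was -3.22 ± 0.35 (SE; adjusted p = 0.00103).

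The inhibitory receptor Fcgr2b had 5 probes. The brightest read 7.44, 8.14, 8.27 and 7.44 in secondary and 5.62, 5.62 and 5.56 in tertiary gliomas. Secondary gliomas 1 and 4 had the same value to all digits deposited, as had tertiary gliomas 1 and 2, and the tertiary SD was 0.03. The fold change was -2.22 ± 0.24 (SE; limma, adjusted p = 0.000964). Its name ends in _x_at, a kind of probe that can bind related transcripts, and Fcgr2b and Fcgr3 are related in sequence. Of the other probes, 1435477_s_at changed by -3.23 and is of a kind that can likewise bind related transcripts. Probe 1451941_a_at changed by -2.07 and 1435476_a_at by -2.03. Each of these was called when all probes were tested singly. The remaining one, 1447622_at, read between 1.76 and 2.11 in all 7 samples.

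Trem2 binds lipids and lipoproteins and signals through Tyrobp. The probe used read 9.42, 9.94, 10.22 and 9.54 in secondary and 5.82, 6.08 and 5.44 in tertiary gliomas, and nothing overlapped. The change was -4.00 ± 0.24 (SE; adjusted p = 8.65e-05). The other Trem2 probe, 1421226_at, gave no such difference. It read 5.19, 4.62, 4.86 and 4.86 in the secondary and 4.86 in each of the tertiary samples, with the same value to all digits in 5 of the 7 arrays. Its change was -0.02 ± 0.15 (SE; adjusted p = 0.952 among all probes). The probe used is an _s_at probe, which can bind related transcripts, so the call of Trem2 rests on that probe: with _s_at and _x_at probes left out the gene was at -0.02 and was not called. The mean of both probes gave -2.01, which was called.

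Downstream, Syk is the kinase that docks on phosphorylated ITAMs. The brightest of its 4 probes read 7.34, 7.42, 7.21 and 6.83 in secondary and 5.94, 5.46 and 5.47 in tertiary gliomas. Here secondary glioma 4 was the lowest of its group. The fold change was -1.58 ± 0.20 (SE; limma, adjusted p = 0.00209). The probes differed in size: 1418261_at fell by 3.01 on the log2 scale, 1425797_a_at by 2.60, and 1457239_at, whose groups overlapped, was at -1.12 ± 0.32 and was not called (adjusted p = 0.124). The value of 1418261_at ranged from 6.87 to 7.79 in secondary and from 4.01 to 4.41 in tertiary gliomas.

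Ptpn6 had the most negative change of the 10 with the probe used. It stood at 7.62, 8.68, 9.19 and 8.41 in secondary and at 2.99, 4.19 and 3.50 in tertiary gliomas. The tertiary mean of 3.56 lay below the dim filter, and no detection calls were used. Its fold change of -4.92 ± 0.40 (SE; limma, adjusted p = 0.000227) was the 22nd most negative of 14453. A further probe of the _x_at kind changed by -1.33 ± 0.25 and was called as well, and the mean of both probes gave -3.12.

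Fcgrt, the neonatal Fc receptor that recycles IgG and albumin together with beta-2-microglobulin, differed from the other receptors. It read 5.33, 5.61, 6.20 and 5.38 in secondary and 5.05, 4.90 and 4.83 in tertiary gliomas. The groups did not overlap but came close to each other, and secondary glioma 3 was the highest. Fcgrt was dim in both groups, with means of 5.63 and 4.93, at and below the array medians. A dim filter at the 50th percentile left it out, and its fall may be larger than measured. The change of -0.70 ± 0.22 (SE; 95% interval -1.22 to -0.18) did not pass (limma, adjusted p = 0.114). It passed narrowly with array weights, at -0.65 and an adjusted p of 0.0462, and the adjusted p lay between 0.0462 and 0.274 over its alternatives. Its partner B2m, at a high level, was lower by a like amount, -0.69 ± 0.14 (adjusted p = 0.0229). The log2 difference between Fcgrt and B2m changed by -0.01 between the groups, with a 95% interval of -0.61 to 0.59.

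**Figure D2:**
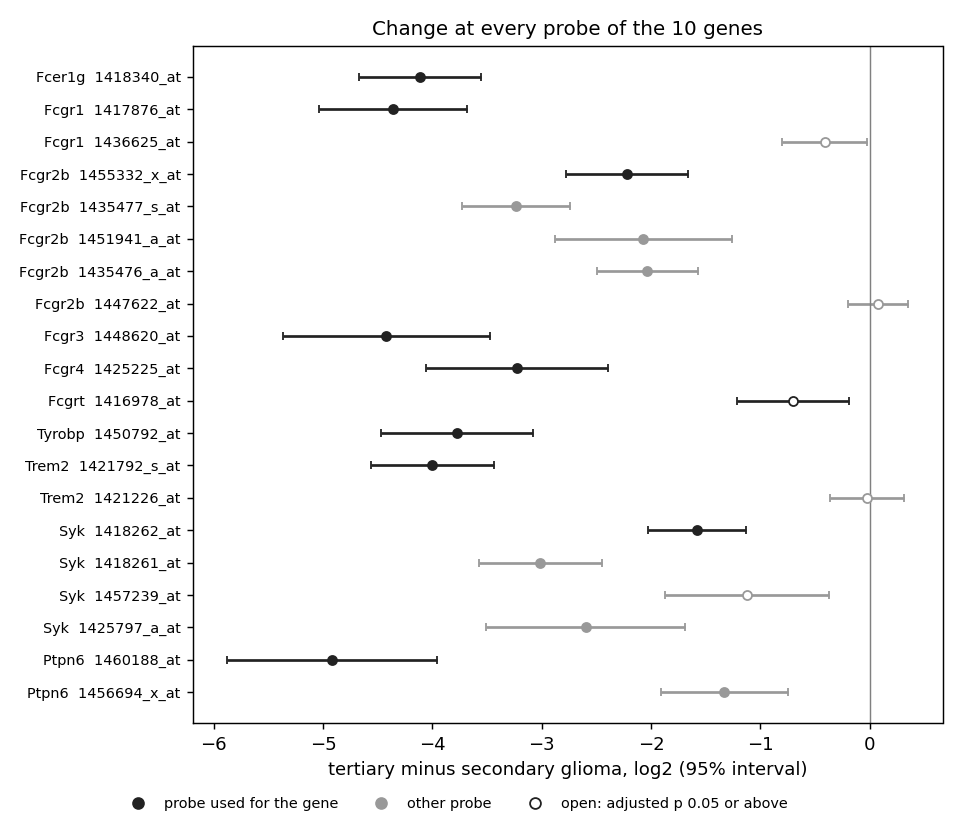
Change at all 20 probes of the 10 genes, tertiary minus secondary glioma on the log2 scale, with 95% intervals from limma on every probe; black marks the probe used for the gene and open circles an adjusted p of 0.05 or above. Of the 20 probes 15 were lower, and the 5 others were the Fcgrt probe and one each of Fcgr1, Fcgr2b, Trem2 and Syk.

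Over all probes, 15 of 20 were called lower when tested singly, against 3.33% of the 45101 probes of the array. The 5 that were not called were the Fcgrt probe and one each of Fcgr1, Fcgr2b, Trem2 and Syk. One of the 20, the dim Fcgr2b probe, was below the filter.

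The changes were then set in order by the probes used. Ptpn6, Fcgr3, Fcgr1, Fcer1g, Trem2 and Tyrobp changed by between -4.92 and -3.77, and their 95% intervals overlapped one another. Fcgr4 followed at -3.22, with an interval of -4.04 to -2.41 that overlapped each of theirs. Fcgr2b (-2.78 to -1.67) came next and overlapped Fcgr4 and Syk (-2.04 to -1.12), whose interval in turn reached that of Fcgrt. The choice of the brightest probe set the place of each gene with several probes. Other probes above the filter gave -3.23, -2.07 and -2.03 for Fcgr2b and -3.01, -2.60 and -1.12 for Syk. The dimmer probe gave -1.33 for Ptpn6, -0.41 for Fcgr1 and -0.02 for Trem2.

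Receptors were set against their partners in 8 pairs, each by the change of the within-sample log2 difference, with a 95% interval from the pair's own spread and no p-value. Fcgr3 and its chain Fcer1g could not be told apart in their change (-0.30, interval -0.87 to 0.27), nor could Trem2 and its chain Tyrobp (-0.23, interval -0.82 to 0.36). Fcgr1 fell by 0.24 more than Fcer1g (interval -0.48 to -0.01). The measured change was smaller in Fcgr4 than in Fcer1g by 0.89 (interval 0.07 to 1.71) and in Fcgr2b by 1.90 (interval 1.24 to 2.55). The tertiary values of Fcgr4 and Fcgr2b may be background, so their falls may be larger than measured. With the probes used, the change of Syk was smaller than that of Tyrobp by 2.19 (interval 1.22 to 3.17), and Ptpn6 set against Syk gave -3.34 (interval -4.86 to -1.82). These results depend on the probe. Other probes above the filter gave between -3.23 and -2.03 for Fcgr2b and between -3.01 and -1.12 for Syk. The dimmer probe gave -1.33 for Ptpn6, -0.41 for Fcgr1 and -0.02 for Trem2. With the Syk probe at -3.01 and the Ptpn6 probe at -1.33 their order is the opposite. With the Syk probe at -1.12 it is not. With its dimmer probe Fcgr1 fell less than Fcer1g. Values of the groups overlapped in 3 of the 8 pairs: Fcgr3 with Fcer1g, Trem2 with Tyrobp, and Fcgrt with B2m.

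The same question was put to the whole table by taking each gene relative to the mean of the 19 microglia and macrophage markers in the same sample. With limma, Fcer1g (-0.18, 95% interval -0.94 to 0.58), Trem2 (-0.06), Tyrobp (0.17), Fcgr1 (-0.42), Fcgr3 (-0.48) and Fcgr4 (0.71, interval -0.07 to 1.50) did not pass. Fcgr2b (1.71), Syk (2.36) and Fcgrt (3.24) fell less than the markers did, as did 98.5% of all genes tested, most of which are no myeloid genes. Other probes above the filter changed by -3.23, -2.07 and -2.03 for Fcgr2b and by -3.01, -2.60 and -1.12 for Syk. Those at -3.23, -3.01 and -2.60 lay nearer to the marker mean of -3.94 than the probe used. None was tested against it singly. The tertiary values of Fcgr2b, Syk and Fcgrt may be background, so their falls may be larger than measured. Ptpn6 fell more with the probe used, by 0.98 (adjusted p = 0.0141), as did 0.249% of all genes. This direction depends on the probe: the other Ptpn6 probe changed by -1.33 and the mean of both by -3.12, less than the marker mean. The tertiary means of Ptpn6 and of 2 of the markers lay below the dim filter, where a fall may be larger than measured. The same marker mean enters every gene in this fit, so the genes' variances that limma pools are not independent, and each gene's own variance was used as well. Limma's standard error was the larger in each of the 10 genes but Fcgr4. On that basis the same 4 were called and Fcgr1 was added, falling by 0.42 more than the markers (interval -0.65 to -0.19, adjusted p = 0.00558), where 0.304% of all genes were lower and 98.2% higher. This too depends on the probe: the other Fcgr1 probe changed by -0.41 and the mean of both by -2.39, less than the marker mean. For Fcer1g the interval narrowed to -0.45 to 0.09 and for Trem2 to -0.34 to 0.21.

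**Figure D3:**
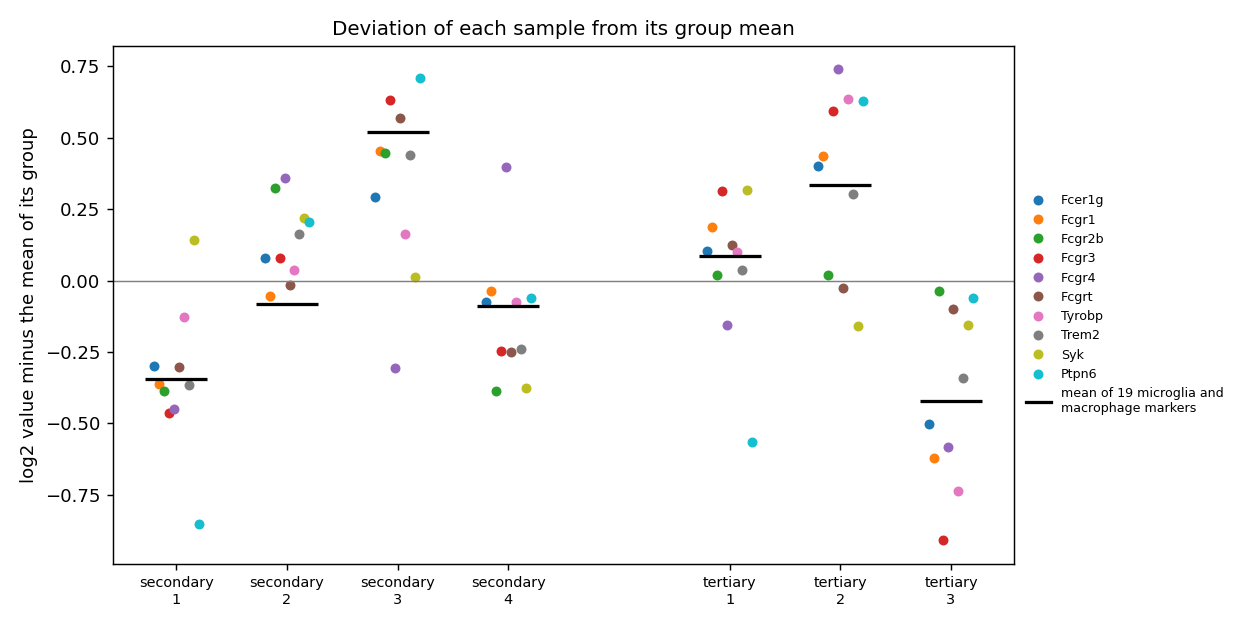
Each gene's log2 value minus the mean of its group, by sample, with the mean of the 19 microglia and macrophage markers as black bars. Secondary glioma 3 is the highest of its group in 8 of the 10 genes and tertiary glioma 3 the lowest in 8, and the bars lie on the same side.

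Within the groups the genes varied together. Secondary glioma 1 was the lowest of the secondary samples in 9 of the 10 genes (tied with secondary glioma 4 in Fcgr2b), and secondary glioma 3 the highest in 8, Fcgr4 and Syk being the exceptions. Tertiary glioma 2 was the highest of its group in 7 genes and tied with tertiary glioma 1 in Fcgr2b, and tertiary glioma 3 the lowest in 8. Over the 10 genes the mean deviation from the group mean was -0.35 in secondary glioma 1, 0.34 in secondary glioma 3, 0.36 in tertiary glioma 2 and -0.41 in tertiary glioma 3. The marker list deviated by -0.35, 0.52, 0.33 and -0.42 in these samples, with secondary glioma 3 highest in 19 of 19 markers. Ptpn6 had the widest secondary range, from -0.85 in secondary glioma 1 to 0.71 in secondary glioma 3. Syk was above its group mean in secondary glioma 1, by 0.14, where the other 9 were below theirs. Syk and Fcgrt were highest in tertiary glioma 1. None of the 9 calls ended when any 1 of the 7 samples was left out.

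Likeness of pattern was measured as the root mean square difference of gene-centred log2 values over the 7 samples, which the group difference dominates. The genes closest to Fcer1g were the complement subunit C1qc (0.08), the lysosomal protein Cd68 (0.11) and Ly86 (0.12). Trem2 was closest to Cd68 (0.07) and Fcgr1 to Aif1 (0.11), both from the marker list, and Fcgr3 to the adaptor Fyb (0.15). Tyrobp was nearest to the cathepsin Ctsz (0.13) and Ptpn6 to the cytokine Il1b (0.21). The genes with smaller changes had other neighbours: Ltc4s for Fcgr2b (0.14), the cannabinoid receptor Cnr2 for Syk (0.16), the annexin Anxa5 for Fcgr4 (0.29) and Crlf3 for Fcgrt (0.07). None of the 3 closest genes of any of the 10 was another of the 10, which are few among the 14453 genes tested. Distances among the 10 ran from 0.13 (Fcer1g and Trem2) to 2.13 (Fcgrt and Ptpn6).

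By RefSeq gene order, Fcgr2b, Fcgr4, Fcgr3 and Fcer1g lie in a single stretch of chromosome 1 that holds 42 annotated genes, many of them transfer RNA genes. The 4 were all called lower. Of the other genes in the stretch 4 were tested and none passed: Cfap126 at -0.56 (limma, adjusted p = 0.160), the respiratory chain subunit Sdhc at 0.10 (0.699), Tomm40l at 0.34 (0.433) and the apolipoprotein Apoa2 at -0.82 (0.112). Among all genes tested 6.33% were lower and 1.04% higher, so 4 genes cannot tell whether the stretch differs from the rest.

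The remaining Fc receptors were mostly dim. Of 13 listed, 10 had a probe and 5 were tested. Fcrls, an Fc receptor-like molecule known from microglia, fell from 10.96 ± 0.38 (SD) to 6.88 ± 0.50, a change of -4.08 (adjusted p = 0.000116). Trim21, the cytosolic antibody receptor, was at -0.34 (adjusted p = 0.221), and Fcrla, Pigr and Fcer2a did not pass either. The IgE receptor genes Fcer1a and Ms4a2, whose products join Fcer1g in mast cells, lay below the dim filter with means of 1.88 and 2.37. None of 5 mast cell and basophil markers passed (median -0.01), the lowest p among them being that of Cma1 at -0.13. Of the ligands, 3 immunoglobulin chains were tested. Ighm, read by an _s_at probe, changed by -1.30 (adjusted p = 0.0127), while Igha was at -0.34 and Ighg3 at 0.06.

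Other receptors and chains of ITAM signalling were lower in 10 of 16 cases, with a median of -1.50. The beta-glucan receptor Clec7a, which carries an ITAM-like motif of its own, went from 9.52 ± 0.21 (SD) to 4.51 ± 0.65. Its change was -5.01 (adjusted p = 8.02e-05), with an interval of -5.69 to -4.34 that overlapped that of Ptpn6. The integrin subunit Itgam was at -4.36 and Cd300lb, a receptor that couples to Tyrobp, at -3.15. Itgam and Csf1r (-4.23) are counted here and are also among the 19 microglia and macrophage markers. The 6 that did not pass were Trem1, Oscar, Pilrb1, Cd247 and the B-cell receptor chains Cd79a and Cd79b.

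Kinases, adaptors and effectors behind the ITAM were lower in 22 of 39 cases and higher in none (median -1.76). The exchange factor Vav1 changed by -4.22 ± 0.27 (SE), the WAVE complex subunit Nckap1l by -4.12 ± 0.28 and the Src-family kinase Fgr by -3.24 ± 0.23. The 17 that did not pass lay between -2.27 for the phospholipase Plcg2 (adjusted p = 0.0634) and 0.96 for the exchange factor Vav3. Among ITIM receptors and inhibitors 17 of 33 were lower (median -1.10), with the sialic acid-binding receptor Cd22 at -4.41 ± 0.19, the lectin Clec4a3 at -3.77 ± 0.25 and Cd72 at -2.65 ± 0.21. The 16 that did not pass lay between -1.80 for the receptor Pilra (adjusted p = 0.0558) and 0.55 for the phosphatase Ptpn22.

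Genes tied to Trem2, among them its ligands, the proteases that shed it and microglial genes known to depend on it, were lower in 19 of 28 cases (median -1.94). Cst7 changed by -4.19 ± 0.24 (SE), the chemokine Ccl6 by -4.55 ± 0.27 and the integrin subunit Itgax by -4.86 ± 0.31. Of the ligands, Apoe was lower (-3.91, adjusted p = 0.000247) while Clu, Apoa1, Apoa2 and Apob did not pass. Of the sheddases, Adam17 was lower (-1.09, adjusted p = 0.0278) and Adam10 was at -0.64 and did not pass. The 9 genes that did not pass lay between -0.88 (Clu) and 0.40 (Hspd1). The ligands and sheddases, and the ends of the ranges given for genes that did not pass, were chosen after their values were seen.

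**Figure D4:**
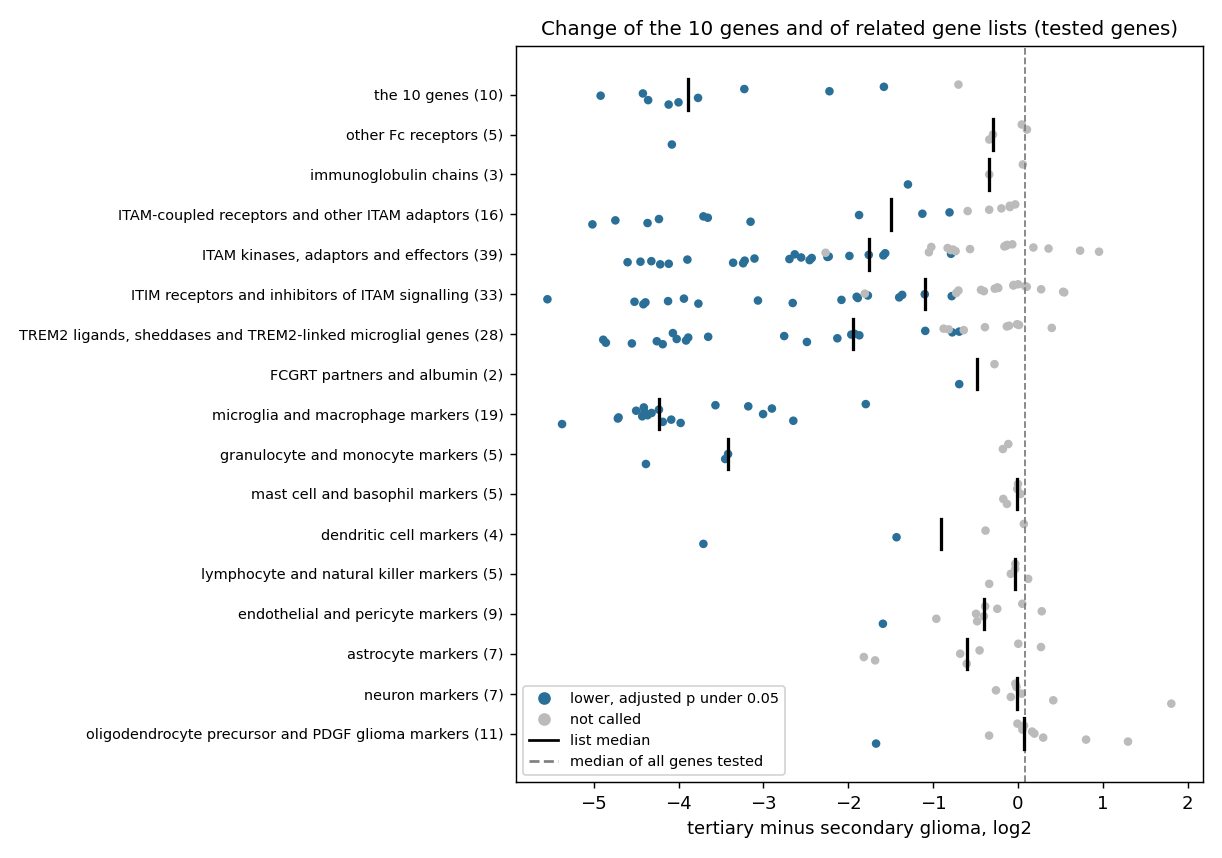
Change of the 10 genes and of each related list, tertiary minus secondary glioma on the log2 scale, 1 point per tested gene and the number tested in parentheses; blue points were lower at an adjusted p under 0.05, black bars are list medians and the dashed line is the median of all genes tested, 0.09. The 10 genes have a median of -3.88 and the microglia and macrophage markers of -4.23, while the lymphocyte, mast cell and neuron medians lie near 0. The lymphocyte and mast cell genes tested were dim, with secondary mean levels of 5.51 and 4.85.

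Markers of other cells were set beside these. Granulocyte and monocyte markers were lower in 3 of 5 cases, with Csf3r at -4.38 and S100a9 at -3.45. Ltf at -0.18 and Camp at -0.11 did not pass, and Mpo, Elane, Ccr2 and Cxcr2 lay below the dim filter. Dendritic cell markers were lower in 2 of 4, Siglech at -3.71 and Bst2 at -1.43. Siglech is also on the list of ITAM-coupled receptors. The others tested, Batf3 at -0.38 and Zbtb46 at 0.07, did not pass. Flt3, Xcr1, Ccr7 and Cd209a lay below the dim filter. Endothelial and pericyte markers were lower in 1 of 9, Abcc9 at -1.59. No lymphocyte or natural killer marker (of 5), astrocyte marker (of 7) or neuron marker (of 7) passed. The lowest p in each list was that of Cd79b at -0.34, Aldh1l1 at -0.60 and Tubb3 at 1.81. Of 15 lymphocyte and natural killer markers listed 5 were tested, with a mean level of 5.51 in secondary and 5.43 in tertiary gliomas. Cd3e, Cd3d, Cd3g, Ms4a1, Nkg7, Ncr1 and Gzmb lay below the dim filter. Of 11 markers of oligodendrocyte precursors and PDGF glioma, only Pdgfb passed, at -1.67. The mean level of the 11 was 9.61 in secondary and 9.69 in tertiary gliomas. The Pdgfb probe was dimmer, at 7.18 in secondary and 5.51 in tertiary gliomas. Whether it reads the introduced PDGF-B was not tested. Markers of this list and myeloid transcripts were thus both measured in cells sorted as EGFP-positive.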

How the data were processed

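RNA of 7 samples was measured on 1 array each. Per the submitters' processing notes the authors used RMA, and the deposited log2 values are 1 per probe and array. Its software version is not stated, and the base of the logarithm is inferred from the range of the values. Because RMA forces arrays to one distribution, shifts common to most genes are hidden, and changes of dim probes come out too small. Scanner files, scan dates and detection calls were not used here, so no batch was tested.

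Of 45101 probes, 34945 had 1 gene symbol in the platform annotation, 932 had several and 64 were controls. Genes were represented by their probe with the highest mean, and those below the 25th percentile of all probe means (a log2 value of 3.99) were left out. Groups came from the labels. Tertiary and secondary gliomas were compared with limma 3.58.1 in R 4.3.3 (lmFit and eBayes), Benjamini-Hochberg adjustment over 14453 genes and a threshold of 0.05, without covariates. Called means past that threshold. Intervals are 95% intervals.

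The 10 genes, the lists and the motifs were chosen with earlier results of these data known. The text gives all 10 genes. It adds the 3 called genes of lowest p from each pathway list, or the 2 of lowest p where none was called, and from each cell type list up to 2 called genes or the 1 of lowest p. Genes named beyond this were chosen after their values were seen. The steps were tested on simulated data. The alternatives concerned the probe, the filter, scaling, variances, array weights, a replicate block and leaving out samples; those without _s_at and _x_at probes and with each gene's own variance were added after seeing the data. Any given pair of arrays had identical values at 5.39% of probes or fewer, and each array was counted as 1 sample. Figures were drawn with matplotlib 3.10.9.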

Additional observations from a re-analysis of the deposited data

How the results depend on the processing

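The number of the 10 genes called lower stayed between 8 and 10 over 17 alternatives. It was 10 with array weights, where Fcgrt passed, and 8 without _s_at and _x_at probes, where Trem2 did not (-0.02, adjusted p = 0.945). No sign changed. The number of all genes called, 1066, became 1933 with array weights, 521 with each gene's own variance, and lay between 647 and 1857 when 1 sample was left out. The lowest was without tertiary glioma 2, the highest without tertiary glioma 1, and leaving out tertiary glioma 3 gave 653. The number of the 10 genes that differed from the marker mean, 4, lay between 3 and 6. Deviations of same-numbered samples correlated at 0.04, -0.14 and 0.01, and those of other pairs at between -0.24 and 0.27. Since the donor gliomas are not named, these values cannot tell whether same-numbered samples share more than a number. With the replicate block 636 genes and 9 of the 10 were called. The block changed no call of the 10 between the groups, and with it 3 differed from the marker mean, against 4 without it. Averaging all probes gave -2.39 for Fcgr1, -2.01 for Trem2 and -3.12 for Ptpn6, each still called. The causes of these shifts were not tested. Low values limit Ptpn6, Fcgr4, Fcgr2b, Syk and Fcgrt in tertiary gliomas, where the probe may read background, and precision is limited by having 7 arrays.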
